A study of Mus musculus with 6 samples.

Results

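The 5 genes described here were Adgre1, Cd68, Itgax, Itgam and Itgb2, of 32287 genes in the count matrix. They were taken by name as the genes of the proteins F4/80, CD68, CD11c and CD11b and of the shared partner of the latter pair. For the first 3 genes, 1 of the 6 CITE-seq antibodies recognized the encoded protein, so that mRNA and antibody could be read on the same cells. CITE-seq counts mRNA molecules and DNA-tagged antibodies together in droplets.

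The cells were live TOM+ cells with high CD11b from the inguinal lymph nodes of Cd169Cre/+.Tdtomatofl/fl (CD169Tom) mice on a C57BL/6J background, over 6 weeks of age. In these mice, cells that had switched on Cd169 and all their progeny carry TOM, so the label is one of lineage and does not require CD169 on the cell. Of the 4 mice, 2 were unimmunized and 2 were taken at day 9 after immunization with hen egg lysozyme (HEL), and both groups carried the same reporter alleles. The methods describe HEL-OVA in Sigma Adjuvant System for recipients of transferred cells, and the sources used here do not tie a dose or adjuvant to the mice analysed. The mice were told apart by 1 hashtag antibody each, and their cells were pooled before loading in 2 captures.

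F4/80 is an adhesion G protein-coupled receptor that has long served as a marker of mouse macrophages. CD68 is a heavily glycosylated protein of the LAMP family, held mainly in late endosomes and lysosomes, with a smaller amount at the cell surface. CD11b (Itgam) and CD11c (Itgax) are alpha chains of beta2 integrins, which reach the surface as pairs with CD18, the product of Itgb2. CD11b with CD18 is complement receptor 3 of neutrophils, monocytes, macrophages and NK cells, and CD11c with CD18 is the usual marker of dendritic cells. In lymph nodes, medullary sinus macrophages (MSMs) line the sinuses and tingible body macrophages (TBMs) clear apoptotic B cells in germinal centers.

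The 3 antibody readouts were counts of short DNA tags, shown here because every antibody value below rests on them. No other tag of the panel or of the hashtags was the same.
F4/80: ttaacttcagcccgt
CD68: ctttctttcacggga
CD11c: gttatggacgcttgc

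In the mm10 (GRCm38) annotation, Adgre1 lies on chr17:57358691-57483527 on the plus strand, Cd68 on chr11:69664213-69666153 on the minus strand and Itgb2 on chr10:77530252-77565708 on the plus strand. Itgam (chr7:128062640-128118491) and Itgax (chr7:128129547-128150657) are neighbors on the plus strand, 11055 bases apart. RefSeq promoters (GRCm38.p6, 250 bases before to 50 after the start site) were at hand for 3 of the 5 genes, and Adgre1 and Itgb2 had no entry. They are printed because Itgam and Itgax are neighbors led by different cell types, and Cd68 is the third member with an entry. Capitals mark the letters GAGGAA on either strand, the core bound by the myeloid factor PU.1, the only motif searched.
Itgam, chr7:128062390-128062689, plus strand: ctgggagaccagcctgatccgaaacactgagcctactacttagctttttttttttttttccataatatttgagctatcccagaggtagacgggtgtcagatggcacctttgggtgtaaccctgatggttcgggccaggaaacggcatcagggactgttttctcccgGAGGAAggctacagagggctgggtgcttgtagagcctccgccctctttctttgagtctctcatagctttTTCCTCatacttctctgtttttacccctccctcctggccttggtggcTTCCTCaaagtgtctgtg
Itgax, chr7:128129300-128129599, plus strand: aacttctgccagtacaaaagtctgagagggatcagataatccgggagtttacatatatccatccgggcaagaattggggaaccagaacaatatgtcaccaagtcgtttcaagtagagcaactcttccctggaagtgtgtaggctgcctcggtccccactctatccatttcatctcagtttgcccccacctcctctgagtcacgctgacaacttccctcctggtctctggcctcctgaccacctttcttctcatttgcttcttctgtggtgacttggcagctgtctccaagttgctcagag
Cd68, chr11:69666121-69666420, minus strand: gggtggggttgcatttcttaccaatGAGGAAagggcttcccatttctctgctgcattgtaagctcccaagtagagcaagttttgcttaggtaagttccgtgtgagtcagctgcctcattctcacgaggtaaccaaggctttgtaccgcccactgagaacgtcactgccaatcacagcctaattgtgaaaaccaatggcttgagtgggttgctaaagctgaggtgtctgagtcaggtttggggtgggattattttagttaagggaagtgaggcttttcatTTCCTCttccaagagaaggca
The letters occurred 3 times in the Itgam window, at positions -84, -15 and 32 from the start site, and 2 times in the Cd68 window, at -225 and 29. They occurred 0 times in the Itgax window. Of 32851 promoters of this length, 28.3% held them at least once.

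After filtering, 12139 cells were kept, with 2828 and 537 from the unimmunized mice and 4052 and 4722 from the immunized mice. Cells were gated by marker genes that include none of the 5 members. The gates placed 7566 cells in 16 cell types and left 4573 ungated, and 1435 cells lay near a cut. Summing counts by mouse and cell type gave 59 libraries with a minimum of 10 cells, holding 34754 to 9965434 UMIs each. Unimmunized mice had a median of 5877 and 6280 UMIs per cell and immunized mice 9674 and 12728, so immunization and depth ran together. MSM-like cells were shallow, with a median of 2110 UMIs. Inflammatory macrophage-like cells had libraries in the immunized mice alone, neutrophil-like cells in 1 mouse per condition, and moDC-like (monocyte-derived dendritic) cells in 3 mice.

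The sort on CD11b was set beside its own gene. Itgam was near 0 in alpha-beta T-like cells, at 11.6 and 18.5 CPM (counts per 1000000 UMIs) without immunization and 15.1 and 6.92 CPM after it. In B cell-like cells it was 8.57, 0, 9.28 and 29.5 CPM in the same order of mice. With every cell thinned to 1000 UMIs, Itgam was seen in 0.877% ± 1.26 (SD, n = 4 mice) of alpha-beta T-like, 0.309% ± 0.617 of B cell-like and 10.7% ± 1.36 of NK-like cells. In gamma-delta T-like cells it was seen in 0.174% ± 0.348. The defining transcript of the sort was therefore scarce in the T-like and B cell-like cells, although the sort was on the protein. Among myeloid types it was also low in cDC1-like (2.17% ± 2.53) and migratory DC-like cells (2.94% ± 3.28). The summed level of 4 macrophage markers (C1qa, C1qb, C1qc and Apoe) was 163 to 1090 CPM in the lymphoid libraries, against 8080 to 10400 CPM in C1q macrophage-like cells. Its part in the member levels of lymphoid cells was not tested.

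Adgre1 was highest in TBM-like cells. It reached 242 and 278 CPM in the unimmunized mice and 322 and 270 CPM in the immunized mice, and every one of these values lay above every value of every other type. C1q macrophage-like cells came next, with 185, 169, 151 and 130 CPM. Classical monocyte-like (150, 169, 126 and 122 CPM) and nonclassical monocyte-like cells (197, 141, 129 and 75.7 CPM) overlapped with them. MSM-like cells were low for macrophages, with 57.2, 17.9, 58.6 and 0 CPM. The 0 came from the smallest library, where a count of 0 allows up to 86.3 CPM. Thinned to 1000 UMIs, Adgre1 was seen in 3.44% ± 3.97 of MSM-like and 19.5% ± 1.66 of TBM-like cells. Among dendritic cells, cDC2-like cells held 168, 105, 107 and 68.4 CPM, while cDC1-like cells held 19.5 to 44.3 CPM and migratory DC-like cells 17.5 to 33.3 CPM. The 4 values of cDC2-like cells thus lay above all those of cDC1-like and migratory DC-like cells. In T-like, NK-like and B cell-like libraries Adgre1 ranged from 0 to 47.2 CPM, and the highest value was the B cell-like library of immunized mouse 2, where the macrophage markers were also highest among lymphoid libraries (1090 CPM).

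Cd68 was high across macrophages and monocytes. TBM-like cells held 340, 402, 340 and 421 CPM, and C1q macrophage-like cells 289, 495, 329 and 307 CPM. The ranges of these types overlapped. MSM-like cells held 252, 304, 173 and 173 CPM and, unlike for Adgre1, overlapped with classical monocyte-like cells (263, 337, 264 and 281 CPM). cDC2-like cells held 167 to 260 CPM, cDC1-like cells 74.6 to 258 CPM and migratory DC-like cells 51.3 to 147 CPM. Lymphoid libraries ranged from 0 to 88.5 CPM, the latter again the B cell-like library of immunized mouse 2.

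Itgax was led by dendritic cells. moDC-like cells held 295 CPM in unimmunized mouse 1 and 179 and 178 CPM in the immunized mice, and cDC2-like cells held 205, 187, 185 and 185 CPM. cDC1-like (127, 123, 111 and 228 CPM) and migratory DC-like cells (124, 146, 82.0 and 126 CPM) overlapped with each other. MSM-like cells were the lowest myeloid type, with 11.4, 17.9, 4.69 and 0 CPM, and did not overlap with TBM-like cells (56.7, 83.3, 131 and 128 CPM). NK-like cells held 69.1, 116, 80.6 and 109 CPM, above all values of T-like and B cell-like cells (0 to 24.2 CPM).

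Itgam was led by neutrophil-like cells, with 234 CPM in unimmunized mouse 1 and 345 CPM in immunized mouse 1, the 2 mice with such a library. Both values lay above those of all other types. Classical monocyte-like cells held 129, 222, 156 and 145 CPM and TBM-like cells 155, 153, 128 and 178 CPM. NK-like cells, at 87.0, 116, 121 and 209 CPM, lay within the range of classical monocyte-like cells in immunized mouse 2 alone and in the other 3 mice below every library of both types. cDC1-like cells were low (22.6, 6.49, 23.9 and 55.0 CPM), below the 4 values of cDC2-like cells (97.7, 91.0, 107 and 89.0 CPM).

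Itgb2, which pairs with every alpha chain of this group, was found in all 59 libraries. Nonclassical monocyte-like cells held 462, 461, 399 and 419 CPM and NK-like cells 319, 317, 341 and 397 CPM. The former lay above every value of NK-like cells by a narrow margin. Alpha-beta T-like cells, which make LFA-1 from Itgal and Itgb2, still held 97.1, 113, 138 and 93.5 CPM. MSM-like cells were at the low end, with 83.3, 53.6, 70.3 and 28.8 CPM, next to migratory DC-like cells at 57.2 to 118 CPM. In the order of mean levels, most neighbors did not separate: ranges overlapped in 13 of 15 neighboring pairs of types for Adgre1, 14 for Cd68, 14 for Itgax, 13 for Itgam and 12 for Itgb2.

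**Figure D1:**
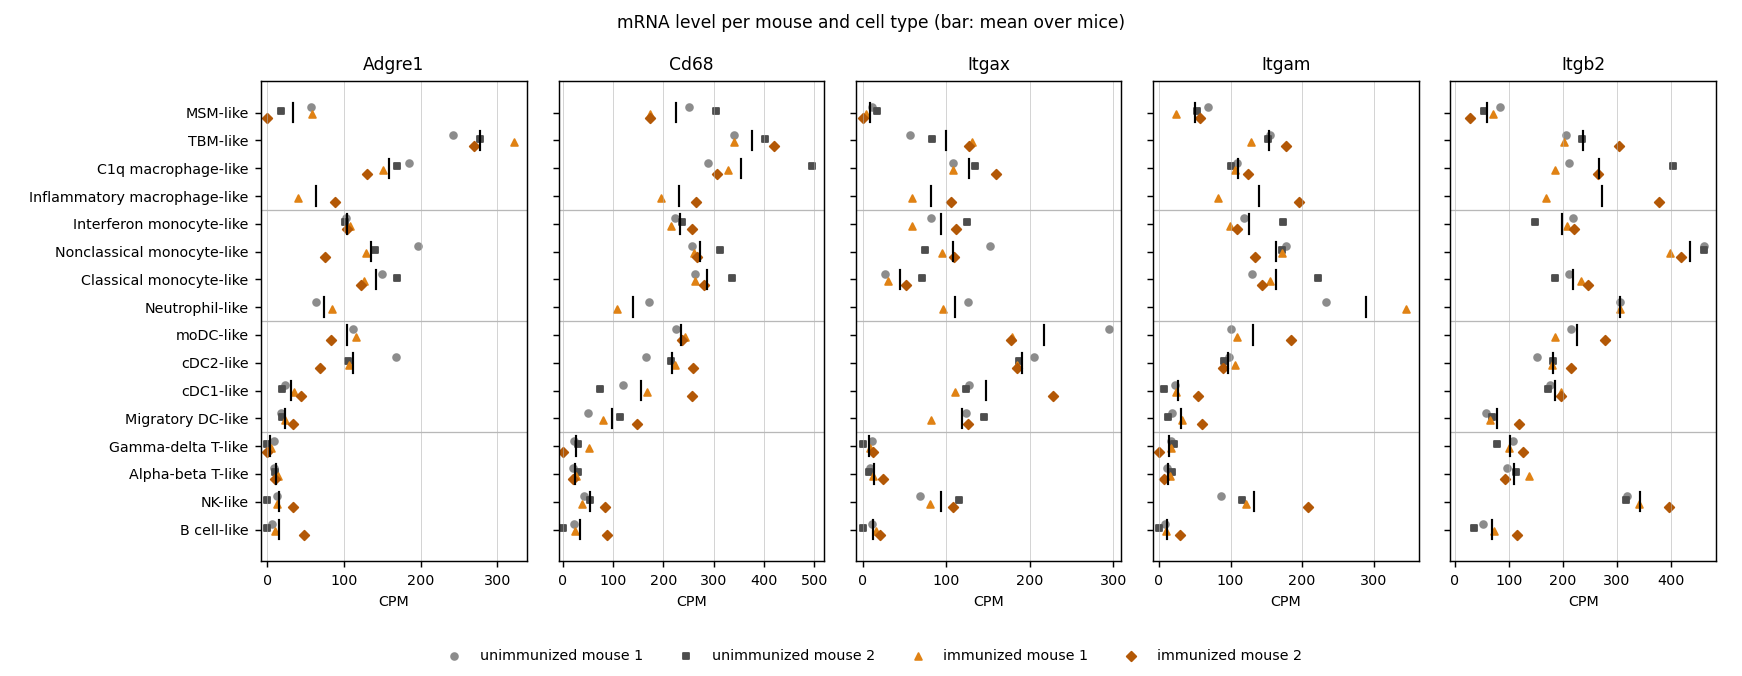
mRNA level of the 5 genes in CPM (horizontal axes, linear from 0) in each cell type (rows), with 1 point per mouse and a bar at the mean over mice. TBM-like cells stand apart for Adgre1 at 242 to 322 CPM, MSM-like cells lie at 0 to 17.9 CPM for Itgax, and neutrophil-like cells lead Itgam at 234 and 345 CPM.

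All 5 genes differed between cell types by edgeR's quasi-likelihood F test, with adjusted p between 5.9e-19 (Adgre1) and 4.7e-15 (Itgb2). The same test called 74.6% of the 11262 genes tested, so a difference between types was the rule. The contrasts between lineages below give each cell type equal weight, and differences are log2 fold changes with their standard error (SE).

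In macrophages (MSM-like, TBM-like, C1q and inflammatory macrophage-like) against the other myeloid cells, 2 members were higher and 1 was lower. Adgre1 averaged 133 against 90.5 CPM (0.55, SE 0.15, edgeR adjusted p = 0.0052). Its means were 278 CPM in TBM-like, 159 in C1q, 63.7 in inflammatory macrophage-like and 33.4 in MSM-like cells. The inflammatory and MSM-like means thus lay below the average of the other myeloid cells. Cd68 averaged 297 against 205 CPM (0.55, SE 0.12, adjusted p = 0.00049 in edgeR). Itgax averaged 79.6 against 129 CPM (-1.16, SE 0.18, edgeR adjusted p = 3.2e-06). Itgam (0.06, SE 0.14, adjusted p = 1 in edgeR) and Itgb2 (-0.17, SE 0.11, edgeR adjusted p = 0.36) did not pass. Of all genes tested, 10.3% were higher and 10.8% lower in this contrast. The Cd68 call was lost in capture 2 alone (0.48, edgeR adjusted p = 0.051). The Itgax value rested on MSM-like cells: without their libraries it was -0.21 (edgeR adjusted p = 0.52), while Adgre1 became 0.93 and Itgam passed at 0.50 (adjusted p = 0.014 in edgeR). The Adgre1 call was lost with DESeq2 (0.44, adjusted p = 0.071), in capture 2 alone (0.44), and without unimmunized mouse 1 (0.34), immunized mouse 2 (0.32) or immunized mouse 1 (-0.44), where the immunized MSM-like arm is 1 library with 0 Adgre1 UMIs.

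In dendritic cells against the other myeloid cells all 5 members passed, 1 of them upward. Itgax averaged 169 against 84.6 CPM (1.39, SE 0.13, edgeR adjusted p = 1.3e-11). Adgre1 averaged 67.3 against 124 CPM (-1.0, SE 0.15), Cd68 176 against 265 CPM (-0.59, SE 0.12), Itgam 71.4 against 149 CPM (-1.22, SE 0.14) and Itgb2 168 against 250 CPM (-0.51, SE 0.10). Their edgeR adjusted p-values were at most 0.00012. Here 22.0% of all genes were higher and 9.62% lower. Without immunized mouse 1, 3 of the 5 calls were left, since Adgre1 (-0.44) and Itgb2 (-0.40) no longer passed. The Itgb2 call was also lost without unimmunized mouse 1 (-0.45), and that of Cd68 in capture 2 alone (-0.36).

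In monocytes and neutrophils against the other myeloid cells, the 2 subunits of complement receptor 3 were higher. Itgam averaged 185 against 92.3 CPM (1.16, SE 0.13, edgeR adjusted p = 1.7e-09) and Itgb2 290 against 188 CPM (0.68, SE 0.11, adjusted p = 3.3e-06 in edgeR). Cd68 (0.03, SE 0.13) and Itgax (-0.23, SE 0.17) did not pass, with edgeR adjusted p of 1 and 0.44. Of all genes, 9.36% were higher and 8.88% lower. Adgre1 was just short of the threshold (0.46, SE 0.17, edgeR adjusted p = 0.055) and passed when the mouse entered as a block (0.43, adjusted p = 0.0498 in edgeR), as it did in 10 further alternatives. Without the MSM-like libraries, Itgax was lower here (-0.79, edgeR adjusted p = 7.5e-05). With Leiden clusters in place of the gates it was 0.53, in the opposite direction (adjusted p = 0.0080 in edgeR). That contrast spans other types, since no cluster was named TBM-like or cDC2-like. Clusters with Il22ra2 and Prg3 among their leading genes were named MSM-like (312 cells) and classical monocyte-like (240 cells).

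Against lymphoid cells, all 5 members were higher in myeloid cells, in a contrast where 19.2% of all genes were higher and 27.8% lower. The differences were 3.39 (SE 0.21) for Adgre1, 2.90 (SE 0.14) for Cd68, 2.37 (SE 0.29) for Itgax, 2.31 (SE 0.17) for Itgam and 0.81 (SE 0.10) for Itgb2, each with an edgeR adjusted p of at most 5.9e-09. Beside the small difference of Itgb2 stands its NK-like level, which was above that of 11 of the 12 myeloid types on average. Without immunized mouse 1, Adgre1 (3.35) and Itgax (2.12) did not pass, as the immunized gamma-delta T-like or MSM-like arm was then 1 library without their UMIs.

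The F4/80 antibody is given as a centred log ratio (CLR), the log of an antibody's count in a cell relative to the mean log of all 6 antibodies. It was highest on average in TBM-like cells, at -0.230 and -0.264 without immunization and 0.138 and -0.0238 after it. C1q macrophage-like cells followed at 0.0208, -0.504, -0.204 and -0.208. MSM-like cells, low for Adgre1 mRNA, were near them at -0.170, -0.813, -0.243 and -0.0950. Lowest were gamma-delta T-like (-1.27 to -1.04), NK-like (-1.23 to -1.01) and neutrophil-like cells (-1.17 and -1.11). The order was shallow, and the ranges of all 15 neighboring pairs of types overlapped. Mean counts per cell were small, at 12.3 to 20.1 in TBM-like cells and 2.84 to 7.34 in NK-like cells. By counts, neutrophil-like cells were not low, with 15.4 and 4.19 and rank 4 of 16 types by their mean, and B cell-like cells were lowest (1.60 to 3.65).

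The F4/80 signal was higher in macrophages than in other myeloid cells in 4 of 4 mice (0.298 ± 0.0960 CLR, SD). It was lower in dendritic cells than in other myeloid cells in all 4 (-0.217 ± 0.0717), and higher in myeloid than in lymphoid cells in all 4 (0.476 ± 0.144). Each of these had p = 0.125 in the two-sided exact sign-flip test, the smallest that 4 mice allow, and 0.136 after adjustment over the 12 antibody comparisons. Monocytes and neutrophils were higher in 1 of 4 mice (-0.0641 ± 0.129, exact p = 0.5), and that sign turned in 4 of the alternatives.

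The CD68 antibody had another order than Cd68 mRNA. Staining was done before live cells were sorted, and the methods name no permeabilization for this step. The antibody values thus need not count CD68 held inside cells. MSM-like cells stood alone at the top on both scales, with 0.433, 0.717, 0.542 and 0.571 CLR and mean counts of 33.1, 30.8, 29.9 and 24.6 per cell. By CLR the next types were lymphoid: gamma-delta T-like (-0.385 to -0.240), NK-like (-0.458 to -0.348), B cell-like (-0.442 to -0.384) and alpha-beta T-like cells (-0.616 to -0.295). TBM-like cells, highest on average for Cd68 mRNA, were at -0.260, -0.704, -0.643 and -0.927. C1q macrophage-like cells were lower still, at -1.01, -0.793, -0.875 and -1.15, and classical monocyte-like cells were at -1.20 to -0.939. Thus by CLR C1q macrophage-like and classical monocyte-like cells lay below every library of T-like cells, whose Cd68 level was 0 to 52.5 CPM, and TBM-like cells overlapped with them. By mean counts the next types after MSM-like cells were cDC1-like (8.35 to 23.2), neutrophil-like (5.68 to 19.8), TBM-like (4.79 to 23.3) and inflammatory macrophage-like cells (3.89 to 19.2), and B cell-like cells were second to last (3.07 to 7.91). The rank of the lymphoid cells therefore depended on the scale.

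In the lineage comparisons the CD68 antibody was higher in macrophages than in other myeloid cells in 4 of 4 mice (0.547 ± 0.0922). Among macrophages, MSM-like cells alone stood high, with a mean of 0.566 CLR. TBM-like (-0.634), inflammatory (-0.722) and C1q macrophage-like cells (-0.955) lay nearer to the mean of the other myeloid cells (-0.927). The CD68 antibody was lower in monocytes and neutrophils (-0.402 ± 0.0558) and in dendritic cells (-0.136 ± 0.0220) in all 4. It was lower in myeloid than in lymphoid cells in all 4 (-0.356 ± 0.0750), the opposite of the mRNA. Each had an exact sign-flip p of 0.125. Without MSM-like cells the dendritic difference was 0.0790. By mean count, the monocyte types had 5.84 to 6.10 CD68 counts per cell, within the range of the dendritic types (4.67 to 16.6). Neutrophil-like cells had 12.7. Ly6C, another antibody that enters the CLR, was at 561 and 1068 counts in classical monocyte-like cells of the unimmunized mice. In alpha-beta T-like cells of these mice it was at 57.6 and 124. Its part in the CLR differences was not tested. On the log2 scale of mean counts the difference between myeloid and lymphoid cells was 0.0270, so its direction depended on the scale. Another antibody of the panel, against CD169 itself, ran with it: per mouse, Spearman's rho across cell types between the CD68 and CD169 signals was 0.859 and 0.900 in the immunized and 0.700 and 0.714 in the unimmunized mice (13 to 16 types, a description in which the types share 1 staining pool and the CLR scale). NK-like and gamma-delta T-like cells carried 29.6 to 69.3 CD169 antibody counts per cell, and MSM-like cells 15.8 to 49.8. What the CD68 signal of lymphoid cells represents was not tested.

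**Figure D2:**
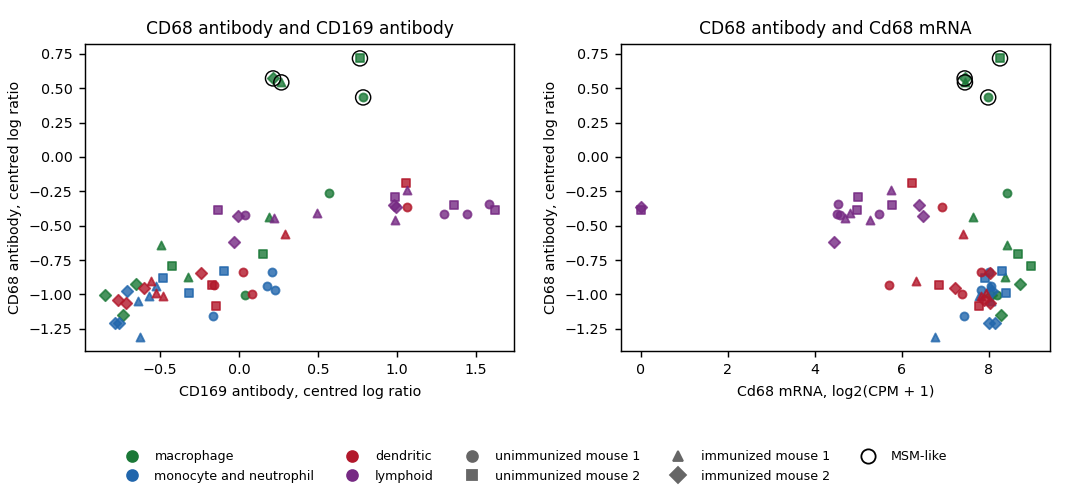
CD68 antibody signal (vertical axes, centred log ratio) against the CD169 antibody signal (left, centred log ratio) and against Cd68 mRNA (right, log2(CPM + 1)), with 1 point per mouse and cell type, colored by lineage and shaped by mouse. Circled MSM-like cells lie alone at 0.433 CLR and above, and lymphoid cells lie above most myeloid cells on the antibody axis while lying low on the mRNA axis, at 0 to 88.5 CPM.

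The CD11c antibody was highest on average in the 4 dendritic types. cDC1-like cells had 1.54, 1.84, 1.98 and 1.98 CLR, migratory DC-like cells 1.88, 1.91, 1.71 and 1.54, cDC2-like cells 1.46, 1.53, 1.81 and 1.68, and moDC-like cells 1.93, 1.95 and 1.34 in 3 mice. These 4 types overlapped with one another, while cDC2-like cells, the lowest of them on average, lay above inflammatory macrophage-like cells (1.29 in both immunized mice). C1q macrophage-like cells had 1.11, 0.961, 1.06 and 1.56, and TBM-like cells 0.496, 0.912, 0.991 and 1.38. In immunized mouse 2 both reached into the dendritic range. There 1.56 lay above the migratory DC-like (1.54) and moDC-like value (1.34), and 1.38 above the latter. NK-like cells (0.283, 0.377, 0.700 and 0.692) were followed by T-like cells, and MSM-like (-0.320, 0.0627, -0.103 and -0.274) and neutrophil-like cells (-0.463 and 0.00582) were at the bottom. Nonclassical monocyte-like cells averaged 0.174 CLR and 16.6 counts. Gamma-delta T-like cells averaged 0.417 CLR and 20.9 counts, with overlapping ranges, although Itgax averaged 108 CPM in the former and 8.1 CPM in the latter. The place of neutrophil-like cells depended on the scale. Their mean CD11c count per cell was 26.3 to 35.1, rank 8 of 16 types, and they held 126 and 96.2 CPM of Itgax. Ly6G, another antibody that enters their CLR, was at 113 and 58.0 counts.

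The CD11c signal was higher in dendritic than in other myeloid cells in 4 of 4 mice (1.32 ± 0.270) and higher in myeloid than in lymphoid cells in 4 of 4 (0.534 ± 0.130). It was lower in monocytes and neutrophils in all 4 (-1.13 ± 0.192), where Itgax mRNA had not passed. It was also lower in macrophages in all 4 (-0.238 ± 0.166), and that sign turned to 0.109 without MSM-like cells. The exact sign-flip p was 0.125 for each.

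**Figure D3:**
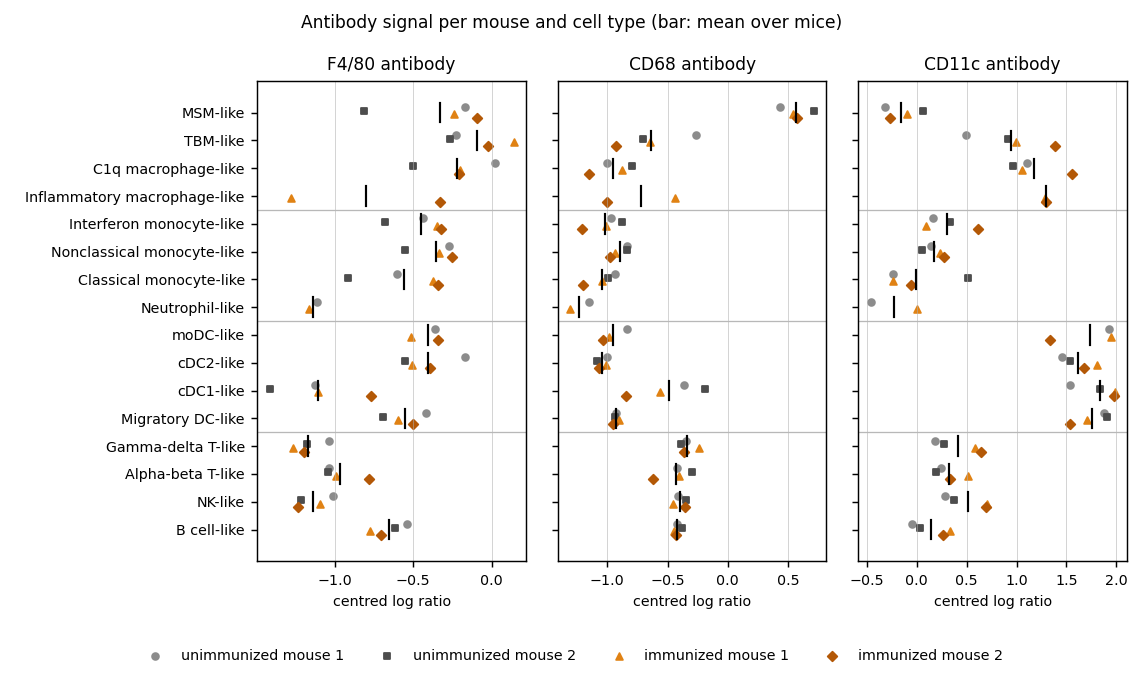
Antibody signal for F4/80, CD68 and CD11c (horizontal axes, mean centred log ratio per cell) in each cell type (rows), with 1 point per mouse and a bar at the mean over mice. CD68 is highest in MSM-like cells (0.433 to 0.717), and the F4/80 ranges overlap between all neighbors in the order. CD11c is highest on average in the 4 dendritic types (1.34 to 1.98), overlapped by C1q macrophage-like (up to 1.56) and TBM-like cells (up to 1.38).

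Across cell types within a mouse, mRNA and antibody were positively correlated for 2 of the 3 pairs. Spearman's rho for Adgre1 and F4/80 was 0.618 and 0.646 without immunization and 0.750 and 0.601 after it. For Itgax and CD11c it was 0.471, 0.792, 0.626 and 0.850 in the same order. For Cd68 and CD68 it was negative in every mouse by CLR, at -0.193, -0.390, -0.482 and -0.639. By log2 antibody count it was 0.443, -0.00549, -0.368 and -0.450, so the sign turned in unimmunized mouse 1. Over the myeloid types alone, Cd68 and CD68 had values of 0.155, 0.117, -0.0699 and -0.255, closer to 0 in every mouse and still negative in the immunized mice. These are descriptions over 13 to 16 types of 1 mouse that share a staining pool and a library, with no test. On the scale of an antibody's share of all antibody counts, the median rho for Adgre1 and F4/80 fell to 0.0990.

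**Figure D4:**
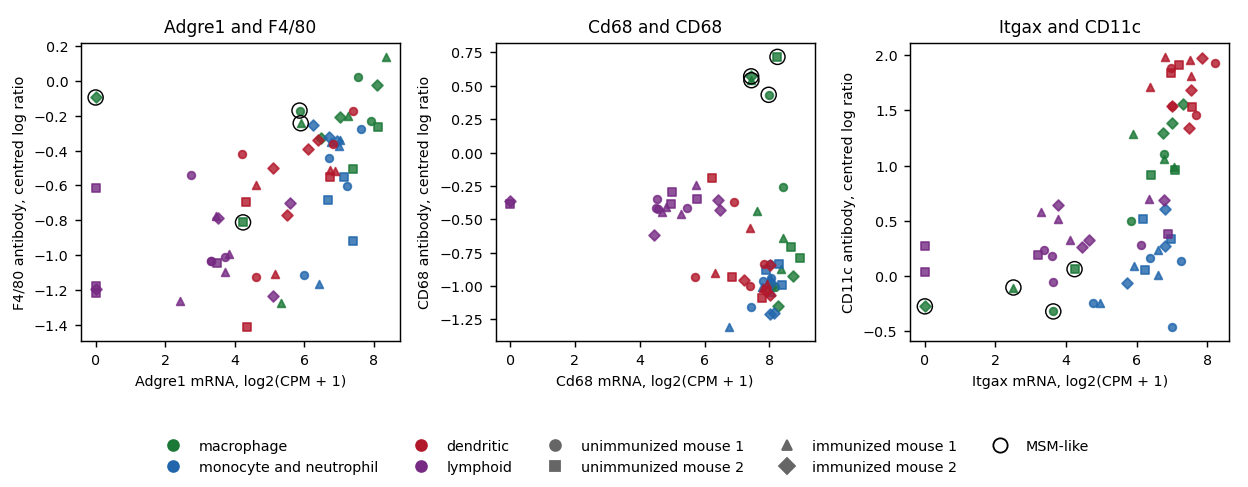
Antibody signal (vertical axes, mean centred log ratio) against mRNA of its gene (horizontal axes, log2(CPM + 1)) for the 3 pairs, with 1 point per mouse and cell type, colored by lineage and shaped by mouse, MSM-like cells circled. Per mouse, Spearman's rho was 0.601 to 0.750 for Adgre1 and F4/80, 0.471 to 0.850 for Itgax and CD11c, and -0.639 to -0.193 for Cd68 and CD68.

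The pairs were also compared inside a cell type, where the gates cannot set the order. Cells of 1 type and mouse were ranked by antibody signal and split into 3 equal parts, and the UMIs of the gene per 10000 UMIs were compared between the highest and the lowest part. For Adgre1 and F4/80, mRNA was higher in the antibody-high cells in 38 of 44 libraries of at least 30 cells. In TBM-like cells it was 4.19 against 1.42 UMIs per 10000 on average over 2 mice, and in C1q macrophage-like cells 2.22 against 0.733. In MSM-like cells it was 1.02 against 0.251. The mean difference over types was 0.732 ± 0.536 on the log2(value + 0.1) scale and positive in 3 of 4 mice (exact sign-flip p = 0.25). The mouse means cover unlike types. Unimmunized mouse 2, the negative one (-0.0534), had enough cells in nonclassical monocyte-like, gamma-delta T-like, alpha-beta T-like and NK-like cells alone. Its gamma-delta T-like and NK-like cells had no Adgre1 UMIs in either part.

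For Itgax and CD11c, mRNA was higher in the antibody-high cells in 39 of 44 libraries. The values were 2.63 against 0.849 UMIs per 10000 in cDC2-like, 3.06 against 0.970 in moDC-like and 2.18 against 0.325 in TBM-like cells. Alpha-beta T-like cells (0.113 against 0.124) and neutrophil-like cells (0.233 against 0.319) had no such excess. The mean difference was 1.10 ± 0.292 and positive in 4 of 4 mice (exact sign-flip p = 0.125). Antibody-high cells had a median of 10400 UMIs and antibody-low cells 8510, and the values above are per UMI.

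For Cd68 and CD68, mRNA was higher in the antibody-high cells in 15 of 44 libraries. In TBM-like cells it was 3.83 against 3.78 UMIs per 10000, and in C1q macrophage-like cells 3.19 against 3.23. The parts differed by few CD68 antibody counts. In immunized mouse 2 their medians were 6 against 1 in TBM-like and 4 against 1 in C1q macrophage-like cells. Over libraries they were 10 against 1, with 8 against 2 for F4/80 and 34.5 against 7.5 for CD11c. In NK-like cells Cd68 mRNA was lower in 4 of 4 mice (0.297 against 0.913) and in alpha-beta T-like cells in 4 of 4 (0.159 against 0.441). MSM-like cells went the other way in 2 of 2 mice (2.61 against 1.87), as did B cell-like cells in 3 of 3 (0.562 against 0.156). In the MSM-like cells of unimmunized and immunized mouse 1, rank correlation from cell to cell was -0.0133 and -0.0128. Their antibody-high part was shallower, with medians of 1550 against 1920 and 2460 against 3570 UMIs. The mean difference over types was -0.458 ± 0.585 and negative in 4 of 4 mice (exact sign-flip p = 0.125), and it was 0.0490 when cells were ranked by antibody count. The lowest mouse mean (-1.33) was that of unimmunized mouse 2, which rests on nonclassical monocyte-like and lymphoid cells alone. From cell to cell within a library, the median rank correlation of mRNA with the CLR of its antibody was -0.0442 for Cd68, 0.176 for Adgre1 and 0.273 for Itgax. That of the CD68 antibody count with the CD169 antibody count was 0.527, against 0.244 for F4/80 and 0.359 for CD11c. The antibody counts also ran with the total UMIs of the cell (0.218 for CD68, 0.237 for F4/80 and 0.341 for CD11c).

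**Figure D5:**
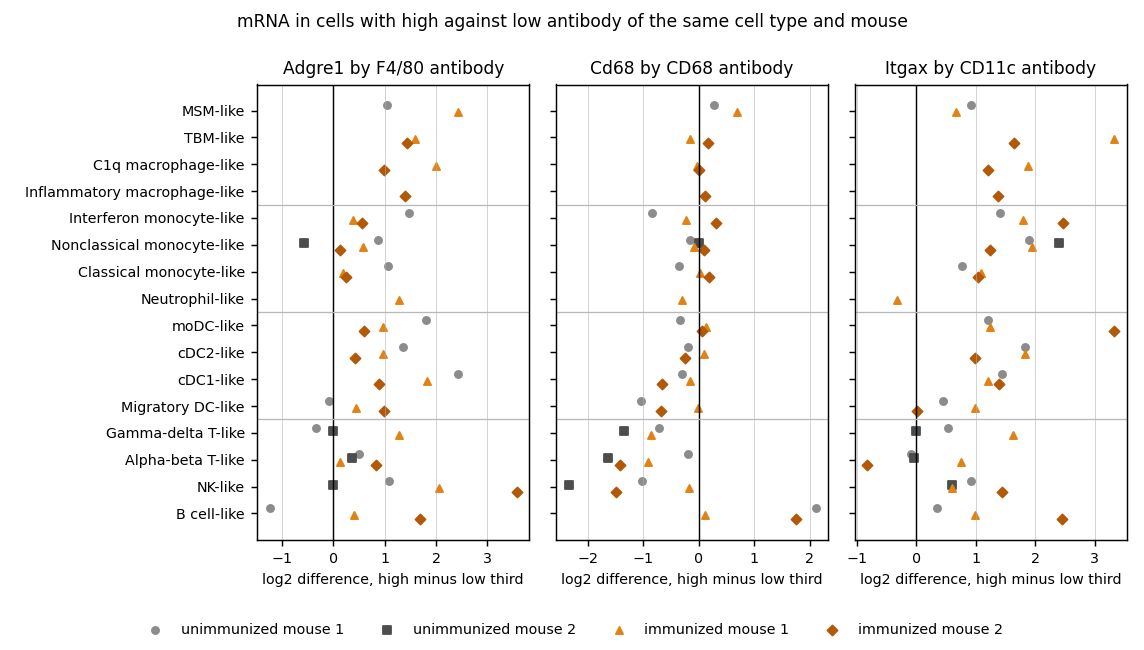
Difference in mRNA between the antibody-high and antibody-low part of the cells of 1 cell type and mouse (horizontal axes, log2 scale with 0.1 UMIs per 10000 added), with 1 point per mouse. Points lie right of 0 in 38 of 44 libraries for Adgre1 by F4/80 and 39 of 44 for Itgax by CD11c, against 15 of 44 for Cd68 by CD68.

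By immunization, 1 of the 5 members passed. Averaged over 15 cell types with both conditions, Itgb2 was higher, at 207 CPM in the immunized and 195 CPM in the unimmunized mice (0.28, SE 0.09, edgeR adjusted p = 0.039). Of all genes tested, 11.3% passed in either direction. Among them, 901 were higher and 373 lower with TMM scaling, against 458 higher and 854 lower with RLE scaling, under which Itgb2 did not pass (0.16, edgeR adjusted p = 0.30). The Itgb2 call was lost with a random block for the mouse (0.29, adjusted p = 0.12 in limma) and in 11 further alternatives, including RLE and leaving out any 1 mouse (0.19 to 0.40). Cd68 (182 CPM in both conditions, 0.31, edgeR adjusted p = 0.086) and Itgam (106 against 94.3 CPM, 0.30, adjusted p = 0.20 in edgeR) did not pass. Adgre1 (80.2 against 85.2 CPM) and Itgax (91.3 against 97.4 CPM) did not pass either, with fitted differences of 0.24 and 0.13 whose sign was opposite to that of the mean levels (edgeR adjusted p = 0.64 and 0.88).

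Inside cell types, 0 of 65 tests of a member in 13 types passed in edgeR, against 0.270% of all such tests over all genes. An unadjusted p under 0.05 was found in 8 of them (12.3%), against 7.54% of the tests over all genes. The lowest adjusted p in edgeR was 0.20, for Itgam in migratory DC-like cells, at 18.7 and 12.7 CPM without immunization and 32.8 and 60.1 CPM after it. The unimmunized values were 16 and 2 UMIs. In TBM-like cells Itgax was 56.7 and 83.3 CPM without immunization and 131 and 128 CPM after it, without overlap but short of the threshold. Here the unimmunized values were 11 and 6 UMIs, from 29 and 10 cells. In the unimmunized mice TBM-like cells carried 58.7 and 26.9 CD169 antibody counts per cell, against 10.6 and 6.65 in the immunized mice. MSM-like cells, the lowest myeloid type for Itgax, carried 49.8 and 33.4 in the unimmunized mice. Whether the TBM-like gate held the same kind of cell in both conditions was not tested. The effect of immunization was not found to differ between cell types for any member (0 of 5 in edgeR, 0 with an unadjusted p under 0.05, lowest unadjusted p = 0.092 for Itgam), in a test that called 0.435% of genes.

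The antibody differences by immunization depended on the scale. As CLR averaged over the 13 types present in all mice, F4/80 was -0.542 and -0.804 without immunization and -0.594 and -0.525 after it, which overlap. CD68 was -0.575 and -0.547 against -0.614 and -0.732, and CD11c was 0.529 and 0.692 against 0.742 and 0.816. Neither overlapped, and exact permutation p was 0.333, the smallest that 2 against 2 mice allow. On the log2 scale of mean counts, CD68 was lower in the immunized mice by 0.786 on average and in 11 of 13 types without overlap. F4/80 differed by -0.407 on that scale, with 7 types lower without overlap, while CD11c differed by -0.0792. The CD169 antibody count was lower in 12 of 13 types, and was higher in B cell-like cells. Pooled over all kept cells, total antibody counts per cell did not separate the conditions (medians of 153 and 173 against 172 and 199). The mice held unlike shares of the cell types, and totals within a type were not compared. Cd68 mRNA did not pass by immunization, except upward with no filter on low counts (0.32) and in capture 2 alone (0.48).

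Genes related to the members were drawn from 3 lists. Of the list around CD68, 4 of 6 genes were tested: Lamp1 and Lamp2 of the LAMP family, and Cd63 and Scarb2 outside it. Of these, 3 (Cd63, Lamp1 and Scarb2) were higher in macrophages than in other myeloid cells (median difference of the list 0.441, of all genes -0.00203, with 10.3% of all genes higher). With RLE or DESeq2 it was 2, and Lamp2 did not pass (0.26, edgeR adjusted p = 0.11). All 4 were higher in myeloid than in lymphoid cells (1.60 against -0.136, with 19.2% of all genes higher). Cd63, a tetraspanin of late endosomes, was 2.07 (SE 0.18) higher in macrophages, and Lamp1, a major lysosomal membrane protein, 0.52 (SE 0.10). Of the list, 2 of 4 genes passed by immunization, Lamp1 (0.32) and Lamp2 (0.33), both higher, with edgeR adjusted p of 0.0071 and 0.020. In this contrast 11.3% of all genes passed, and with RLE scaling neither gene did (0.20 and 0.21, edgeR adjusted p = 0.094 and 0.15).

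Of the adhesion receptor list around Adgre1, 5 of 7 genes were tested, including Cd55, a ligand of Adgre5. None was higher in macrophages (1 with DESeq2) and 2 were lower (median -0.890 against -0.00203 for all genes, of which 10.3% were higher and 10.8% lower). Cd55 and Adgrg5 had groups with 0 UMIs, and enter this median as fitted. Adgre4, a relative in the same subfamily, was 1.56 (SE 0.22) higher in monocytes and neutrophils and 0.89 lower in macrophages (-0.89, SE 0.20). Adgre5 was 1.32 (SE 0.14) higher in monocytes and neutrophils and lower in macrophages (-1.32, SE 0.17). It was the only gene of the list to pass by immunization (-0.64, SE 0.12, edgeR adjusted p = 0.00023), where 11.3% of all genes passed.

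Of the list around the beta2 integrins, 9 of 11 genes were tested. In monocytes and neutrophils 3 were higher and 0 lower (median 0.552 against -0.190), where 9.36% of all genes were higher and 8.88% lower. In macrophages 1 was higher and 4 were lower (-0.399 against -0.00203), where 10.3% of all genes were higher and 10.8% lower. Itgal, the alpha chain of LFA-1, was 2.02 (SE 0.13) higher in monocytes and neutrophils, and Tln1, an activator of integrins, 0.55 (SE 0.11). C3, whose cleaved product is bound by complement receptor 3, was 0.80 (SE 0.17) higher in macrophages and lower in dendritic cells (-1.22, SE 0.17). By immunization 3 of 9 were higher, among them C3 (0.73, SE 0.15) and Fermt3, an integrin activator of blood cells (0.31, SE 0.09). Of all genes, 11.3% passed here in either direction. With RLE scaling 2 were higher and 1 lower, C3 still passed (0.61, edgeR adjusted p = 0.0040) and Fermt3 did not (0.20, adjusted p = 0.14 in edgeR).

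By likeness over the 59 libraries, measured as Pearson's r of log2 CPM among 5720 genes, the genes nearest to Adgre1 were Cd300a (0.908), Dock4, Tgfbi, Nrros and Sirpa. Nearest to Cd68 were Tns3 (0.936), Csf1r, Scarb1, Tifab and Tmem51. Nearest to Itgam were Fcer1g (0.949), Tyrobp, Fcgr3, Fgr and Lilrb4a, and among the 5 nearest to Itgax were Efhd2 (0.828), Dnajb14, Syngr2 and Il10ra. Nearest to Itgb2 were Ifngr1 (0.832), Ptpre, Fuca2, Apobr and Ifnar1. Among the members, r was highest for Adgre1 with Cd68 (0.841) and Cd68 with Itgam (0.829) and lowest for Cd68 with Itgb2 (0.535). The neighboring genes Itgam and Itgax had 0.614. Libraries share mice, captures and depth, so these values are descriptions.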

How the data were processed

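The authors mapped reads with Cell Ranger 4.0.0 to an mm10 reference, merged the 2 captures with aggr, and made the hashtag and antibody tables with CITE-seq-count. Versions of the latter, and whether aggr equalized reads, are not given in the sources used here. The deposited tables hold raw counts (UMIs per gene, hashtag or antibody). Of tag counts, 5.43% (antibodies) and 11.9% (hashtags) were in a row for unmapped tags and were left out. The tag tables carry no capture ending, so 1242 of 18662 cells were dropped because captures 1 and 2 shared their barcode sequence. Cells needed 1 hashtag with at least 80% of hashtag counts and at least 10 counts, and at most 25% mitochondrial UMIs. Hashtags 1 and 2 were the unimmunized mice and 3 and 4 the immunized mice.

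A cell was gated to the type with the highest standardized mean marker level, with a score of at least 1, at least 0.5 above any other lineage, and at least 2 markers detected. The cuts were set with the data in view. Doublets were not removed in the reported values. UMIs summed per mouse and type (at least 10 cells) were fitted together with edgeR 4.0.16 (quasi-likelihood, TMM, filterByExpr, R 4.3.3), with Benjamini-Hochberg adjustment over 11262 genes at 0.05. Libraries of 1 mouse were treated as independent. They come from the same animal, and a block for the mouse was an alternative (median correlation of residuals within a mouse 0.047, estimated duplicate correlation 0.067). The standard error is the fold change divided by the square root of F. Antibody values were mean centred log ratios per cell, compared by exact sign-flip or exact permutation tests over mice. Alternatives were DESeq2 1.42.0, RLE size factors, no filter, limma 3.58.1 with the mouse as a random block, leaving out each mouse, HTODemux of Seurat 5.3.0, at most 10% mitochondrial UMIs, Leiden clusters (scanpy 1.11.5), at least 2000 UMIs, removal of 229 likely doublets, each capture alone, other antibody scales, and 3 chosen after seeing the data (at least 3 markers, no MSM-like libraries, no lymphoid libraries). In simulated data 96.7% of 4-fold and 75.0% of 2-fold changes were recovered in the macrophage contrast, and 94.8% and 87.8% by immunization. The simulated libraries had 1 mean profile, no cell type or mouse effects, and were drawn independently. These rates check the fit and do not measure power in the real data. Intervals and the limit for a count of 0 (3 counts) cover counting error only.

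The members, lists and markers were chosen with earlier results of these data known. Named genes are the 5 members, up to 4 genes of each list with the highest mean log2 CPM, and the 5 genes of highest correlation with each member among genes at or above a mean log2 CPM of 4. With 2 mice per condition, edgeR p-values measure the spread between libraries of the same cell type and condition, pooled over cell types. Libraries of the same mouse entered that fit as independent, so these p-values do not measure the spread between mice alone. The exact tests of the antibodies were over mice. A feature list entry for Gm49368, which overlaps Itgam on the same strand in the annotation, was not among the genes analysed. A marker gene and a gene of the correlation lists are not reported here.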

Additional observations from a re-analysis of the deposited data

Results flagged for a closer look

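By immunization, the F4/80 and CD11c antibody signals did not move the same way in all cell types. For F4/80 as CLR, both immunized mice lay above both unimmunized mice in 5 types (alpha-beta T-like, cDC1-like, classical monocyte-like, interferon monocyte-like and TBM-like) and below both in 2 types (B cell-like and gamma-delta T-like). For CD11c this was so in 8 types upward, among them cDC1-like and cDC2-like cells, and in 1 type downward, migratory DC-like cells (1.88 and 1.91 against 1.71 and 1.54). Some of these directions held without overlap on both scales. By log2 mean count too, CD11c was lower in migratory DC-like cells (-0.56) and higher in TBM-like (0.247), NK-like (0.257) and B cell-like cells (1.48). F4/80 was lower in gamma-delta T-like cells on both scales. Other directions depended on the scale. By log2 mean count F4/80 was higher without overlap in 0 types and lower in 7, among them alpha-beta T-like, classical monocyte-like and interferon monocyte-like cells, and CD11c was higher in 3 and lower in 4, cDC1-like cells included (-0.351). The differences between cell types were not tested.

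A group of cells outside the gates, led by Il22ra2 and Prg3 and chosen after the clusters were seen, carried the CD11c antibody with little Itgax mRNA. Its mean CD11c antibody count per cell ran from 24.5 in unimmunized mouse 2 to 61.6 in immunized mouse 1, and its Itgax level was at most 10.1 CPM. Gamma-delta T-like cells also carried the antibody with little mRNA, at 17.7 to 27.9 counts and 0 to 12.6 CPM.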

How the results depend on the processing

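All 5 members differed between cell types in every alternative run. The counts of calls below stand without the share of all genes called in each alternative. They do not show whether the members changed more than other genes. In macrophages 3 members were called, against 1 in capture 2 alone, and in monocytes and neutrophils 2, against 4 with Leiden clusters. The Leiden clusters held no TBM-like or cDC2-like type, so their contrasts span other types than the gates. Leaving out a mouse gave 3 to 5 calls in place of 5 both for dendritic cells and for myeloid against lymphoid cells, 0 in place of 1 for immunization over cell types, 0 to 6 in place of 0 for immunization within a type, and 0 to 3 in place of 0 for its difference between types. The 3, 6 and 3 came without immunized mouse 1, where several immunized arms are 1 small library assumed to vary like the rest. Immunization over cell types called 0 members with DESeq2, RLE, Leiden clusters, capture 1 alone, no likely doublets, at least 3 markers or no lymphoid libraries, and 2 with no filter, HTODemux or capture 2 alone. Within types it called 1 with no filter and 1 without likely doublets. With the mouse as a random replicate block, immunization over cell types called 0. The replicate block changed no other call than this and that of Adgre1 in monocytes and neutrophils. RLE scaling moved the median of all genes by immunization from 0.031 to -0.078 and in myeloid against lymphoid cells from -0.136 to -0.244.

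Signs of uncalled members turned as follows. In macrophages, Itgam was -0.02 with DESeq2, -0.0015 with RLE, -0.03 without unimmunized mouse 1 and -0.18 without immunized mouse 2, and Itgb2 was 0.10 with HTODemux, 0.02 with at least 3 markers and 0.31 without MSM-like libraries. The called Adgre1 was -0.44 without immunized mouse 1. Leaving out a mouse gave -0.44 to 0.54 for Adgre1 and -0.18 to 0.25 for Itgam. In monocytes and neutrophils, Cd68 was -0.02 without unimmunized mouse 1, -0.12 in capture 2 alone and -0.01 without MSM-like libraries, and Itgax was 0.16 without immunized mouse 1 and 0.53 with Leiden clusters. Leaving out a mouse gave -0.02 to 0.12 for Cd68 and -0.26 to 0.16 for Itgax. By immunization without immunized mouse 1, Adgre1 was -0.71, Cd68 -0.10, Itgax -0.03 and Itgam -0.04, and Itgax was -0.03 without immunized mouse 2, while leaving out unimmunized mouse 1 gave the highest values (1.85, 0.79, 1.10 and 0.81 in this order of genes). With Leiden clusters Adgre1 was -0.56, Cd68 -0.48 and Itgax -0.67. Without likely doublets Adgre1 was -0.22 and Itgax -0.13, with at least 3 markers -0.21 and -0.31, and in capture 1 alone Cd68 was -0.05 and Itgax -0.13. Without lymphoid libraries Itgax was -0.02. The cause was not tested.

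For the antibodies, the F4/80 difference of monocytes and neutrophils was 0.177 with Leiden clusters, 0.018 with at least 2000 UMIs, and 0.138 and 0.036 in captures 1 and 2 alone. By immunization F4/80 was -0.046 with Leiden clusters, -0.407 as log2 count, -0.109 as log2 share and -0.021 to 0.245 with a mouse left out, and CD11c was -0.079 as log2 count. The CD68 difference of dendritic cells was 0.084 with Leiden clusters, 0.107 as log2 share and 0.079 without MSM-like libraries, and that of myeloid against lymphoid cells 0.027 as log2 count. The CD11c difference of macrophages was 0.371 as log2 share and 0.109 without MSM-like libraries. Cd68 mRNA of antibody-high against antibody-low cells was 0.049 by log2 count.

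The median rho of Adgre1 and F4/80, 0.632, was 0.817 with Leiden clusters, 0.722 with at least 2000 UMIs, 0.709 and 0.710 in captures 1 and 2 alone, 0.734 as log2 count, 0.099 as log2 share and 0.743 without MSM-like libraries. That of Cd68 and CD68, -0.436, was -0.187 as log2 count and 0.023 without lymphoid cells. That of Itgax and CD11c, 0.709, was 0.494 with Leiden clusters and 0.518 as log2 share.

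Depth limits the low levels: in libraries where a member had 0 UMIs, that count allows up to 12.9 to 86.3 CPM.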

Other observations

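The ungated cells led by Il22ra2 and Prg3 numbered 287 and 66 in unimmunized mice 1 and 2 and 467 and 184 in immunized mice 1 and 2, and values follow in this order. They held Cd68 at 105, 93.9, 106 and 99.6 CPM, above every lymphoid library (at most 88.5 CPM) and below every macrophage library. Adgre1 was 3.36, 4.70, 3.7 and 2.46 CPM. Itgam was 22.4, 23.5, 19.4 and 16 CPM, inside the range of B cell-like cells, and Itgb2 was 34.7, 23.5, 31.9 and 20.9 CPM, in 2 mice below the lowest gated library. Their CD68 antibody count was 15.6, 17.1, 13.5 and 11.3 per cell and their CD169 antibody count 61.8, 46.1, 41.4 and 29.5. The CD11c antibody count was 28.4, 24.5, 61.6 and 48.6, while Itgax was 10.1, 9.39, 9.24 and 6.15 CPM. The gated types had medians of 2.01% to 5.79% mitochondrial UMIs, while this group had 0.788, 0.556, 0.472 and 0.409%. Its median depth was 2916, 2851.5, 4339 and 4328.5 UMIs. These cells were chosen after their genes were seen, and no comparison was tested.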
